A study of Mus musculus with 9 samples.

Results

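Chemokines are small secreted proteins that draw leukocytes into tissue, and their receptors are G-protein-coupled receptors on the cells that respond. The 32 genes described here are 22 chemokine ligands and 10 chemokine receptors, 3 of the receptors being atypical ones that bind chemokines without classical G-protein signalling. They were chosen by gene symbol for their roles in inflammation, with earlier results of these data known. Every share of this list set beside all genes below is bound by that choice. All 32 were found among the 54532 genes measured in mouse vascular tissue. A mean of at least 0.5 FPKM (fragments per kilobase of transcript, scaled to library size) over the 9 libraries was required for testing, and 28 of the 32 passed, 20 ligands and 8 receptors. Differences between groups were tested with limma on log2(FPKM + 0.5), and p-values were adjusted by the Benjamini-Hochberg (BH) method over all 15610 genes tested. Of these 28, 20 had a mean of at least 0.5 FPKM in each of the 3 groups and 8 in only 2 of them.

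All mice were C57BL/6, aged 24 weeks and labelled ApoE-/-, the apolipoprotein E deficiency widely used to produce atherosclerosis. The study compared 3 groups of 3 libraries each. The first was labelled wild-type for SAHH (ApoE-/-/SAHHWT, called SAHH-WT), the second heterozygous for SAHH (ApoE-/-/SAHH+/-, called SAHH-het), and the third heterozygous for SAHH with betaine (SAHH-het+betaine). The enzyme SAHH, S-adenosylhomocysteine hydrolase, is the product of Ahcy and breaks down what methylation reactions leave behind, and betaine is a methyl donor. Neither the betaine dose, route and duration nor the kind of SAHH allele nor the vessel taken is given in the labels. Separate animals are not mentioned in the labels, and the p-values measure the spread between these libraries, which may be technical. In whole tissue, fewer cells of a type and less RNA per cell cannot be told apart.

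Chemokines act in pairs and groups with their receptors. Ccl2, Ccl7 and Ccl12 draw monocytes, largely through Ccr2, and Cxcl1, Cxcl2 and Cxcl5 draw neutrophils through Cxcr2. Cxcl9 acts on Cxcr3 of activated T cells, Cxcl16 on Cxcr6, and Cxcl12, made by stromal and endothelial cells, on Cxcr4 and on the scavenging receptor Ackr3. In atherosclerosis these signals are known for bringing monocytes and T cells into the vessel wall.

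The library content bears on every level below. Ahcy was at 11.5, 7.17 and 7.98 FPKM in the SAHH-WT libraries, 3.48, 3.89 and 4.75 in those labelled SAHH-het and 7.66, 9.70 and 8.63 with betaine, lowest in all 3 libraries labelled SAHH-het, although it was not called (SAHH-het minus SAHH-WT, log2 change -1.03 (SE 0.21; limma, BH-adjusted p = 0.274)). The libraries labelled SAHH-het+betaine carry the same SAHH+/- label, but their Ahcy lay at the SAHH-WT level and above all SAHH-het libraries (betaine minus SAHH-het, log2 change 1.02 (SE 0.21; limma, BH-adjusted p = 0.460)). A difference in genotype and an effect of betaine on Ahcy cannot be told apart here. Apoe was at 2.91, 4.35 and 6.11 FPKM in the SAHH-WT libraries, 149, 223 and 225 in those labelled SAHH-het and 5.51, 8.88 and 7.32 with betaine, so the 3 libraries labelled SAHH-het go against the shared ApoE-/- label. Each direction given for SAHH-het rests on libraries with this discrepancy, and each given for betaine on libraries whose Ahcy was at the SAHH-WT level. Below, SAHH-het and betaine name libraries by these labels only. SAHH-WT 1 stood apart by adrenal cortex genes, whose 8 markers summed to 9882 FPKM there and to 2.90 to 5.52 FPKM in the other 8 libraries. All libraries held fat and muscle RNA besides the vessel wall: summed markers ranged over 1993 to 8731 FPKM for fat, 514 to 13316 for brown fat, 24.5 to 5486 for skeletal and cardiac muscle, 32.6 to 427 for liver, 81.7 to 388 for smooth muscle, 173 to 792 for endothelium and 8.63 to 17.9 for lymphatic endothelium. Of the 6 liver markers, Cyp2e1 was the only 1 with a mean of at least 0.5 FPKM, so that sum rests mainly on a single gene. Summed fibroblast markers were 427, 487 and 567 FPKM in SAHH-WT, 251, 311 and 427 in the libraries labelled SAHH-het and 582, 551 and 639.7 with betaine. The libraries held 15837594 to 17381975 fragments assigned to genes, recovered from the steps of the deposited values. The 32 genes were read from between 14 fragments for Ccr3 and 49217 for Cxcl12 over all libraries, and 13 of them had fewer than 10 fragments in at least 1 library. Wherever values of 3 libraries are listed below they stand in the order of the replicate numbers 1, 2 and 3, and errors written after ± are SDs of the 3 libraries of a group.

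Promoter sequences of 8 genes are shown, picked by the expression described below. They are neighbouring ligands that shared their high libraries (Ccl8 with Ccl12, and Ccl6 with Ccl9), the most highly expressed ligand with its receptor (Cxcl12 and Cxcr4), and 2 neutrophil ligands of low level (Cxcl1 and Cxcl2). A link between these sequences and the expression was not tested. Each run holds 250 bases before and 50 after the annotated start, 5′ to 3′ on the gene's strand, from RefSeq on GRCm38.p6, which covered 24 of the 32 genes. In the first 6 sequences the capitals mark CpG, the dinucleotide at which mammalian DNA is methylated. Ccl8 lies at chr11:82114935-82115234, plus strand; Ccl12 at chr11:82101595-82101894, plus strand. Ccl6 lies at chr11:83593038-83593337, minus strand; Ccl9 at chr11:83578587-83578886, minus strand. Cxcl12 lies at chr6:117168285-117168584, plus strand; Cxcr4 at chr1:128592250-128592549, minus strand.
Ccl8: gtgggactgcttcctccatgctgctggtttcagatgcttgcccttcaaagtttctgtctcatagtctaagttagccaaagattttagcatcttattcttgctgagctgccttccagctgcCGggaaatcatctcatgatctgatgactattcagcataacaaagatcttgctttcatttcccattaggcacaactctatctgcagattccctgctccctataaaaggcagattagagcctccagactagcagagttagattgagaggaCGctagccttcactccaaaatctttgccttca
Ccl12: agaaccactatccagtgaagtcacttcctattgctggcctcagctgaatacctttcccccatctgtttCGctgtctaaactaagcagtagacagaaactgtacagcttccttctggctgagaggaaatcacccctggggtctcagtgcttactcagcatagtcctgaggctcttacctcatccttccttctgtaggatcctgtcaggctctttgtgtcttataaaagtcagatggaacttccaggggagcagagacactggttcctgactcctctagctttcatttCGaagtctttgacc
Ccl6: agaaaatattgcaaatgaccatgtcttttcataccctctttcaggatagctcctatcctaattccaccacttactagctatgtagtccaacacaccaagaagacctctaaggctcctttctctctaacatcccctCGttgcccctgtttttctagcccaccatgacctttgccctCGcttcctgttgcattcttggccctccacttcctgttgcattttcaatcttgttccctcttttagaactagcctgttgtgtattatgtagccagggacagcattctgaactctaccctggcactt
Ccl9: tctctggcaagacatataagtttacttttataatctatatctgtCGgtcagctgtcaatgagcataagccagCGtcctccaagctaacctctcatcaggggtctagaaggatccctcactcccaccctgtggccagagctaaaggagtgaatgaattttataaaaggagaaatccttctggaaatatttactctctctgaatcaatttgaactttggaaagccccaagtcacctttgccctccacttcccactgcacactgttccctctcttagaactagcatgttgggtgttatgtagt
Cxcl12: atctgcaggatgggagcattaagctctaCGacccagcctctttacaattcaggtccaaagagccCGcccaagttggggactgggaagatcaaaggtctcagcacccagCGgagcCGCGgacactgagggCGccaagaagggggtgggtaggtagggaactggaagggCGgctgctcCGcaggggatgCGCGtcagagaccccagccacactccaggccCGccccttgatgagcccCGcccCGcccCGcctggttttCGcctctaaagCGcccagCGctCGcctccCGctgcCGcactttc
Cxcr4: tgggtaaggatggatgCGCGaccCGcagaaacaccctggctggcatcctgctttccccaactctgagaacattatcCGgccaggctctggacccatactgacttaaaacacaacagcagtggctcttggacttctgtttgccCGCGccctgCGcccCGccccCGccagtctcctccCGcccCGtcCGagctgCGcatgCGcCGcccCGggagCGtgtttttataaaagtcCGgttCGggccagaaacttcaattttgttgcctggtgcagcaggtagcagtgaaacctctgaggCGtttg

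The 4 CC ligand promoters hold 2 CpG each, and those of Cxcl12 and Cxcr4 hold 20 each. Over the 24 genes with a sequence the median was 3.5 CpG in 300 bases, with a range of 1 to 22, and over all 32851 promoters in the table it was 7. Ccr1 and Ccr2 had 1 CpG each, Cx3cl1 had 19 and Cxcl14 had 22. DNA methylation was not analysed here.

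A kappaB-type motif, GGGA and TTCC separated by any 2 bases, read on both strands, was found in 3 of the 24 genes (12.5%, against 1.47% of all promoters). These were Cxcl1, Cxcl2 and Ccr3, and Cxcl1 and Cxcl2 are neighbours whose matches have the same letters. The first share counts genes and the second counts promoter sequences. Ccl2, Ccl4, Ccl5, Ccl7, Ccl11, Ccl24, Cxcl5 and Cxcl16 had no sequence and were not searched. In Cxcl1 and Cxcl2, which lie at chr5:90890995-90891294, plus strand and chr5:90903649-90903948, plus strand, matches on both strands overlap by all but 1 base, and the capitals below mark both.
Cxcl1: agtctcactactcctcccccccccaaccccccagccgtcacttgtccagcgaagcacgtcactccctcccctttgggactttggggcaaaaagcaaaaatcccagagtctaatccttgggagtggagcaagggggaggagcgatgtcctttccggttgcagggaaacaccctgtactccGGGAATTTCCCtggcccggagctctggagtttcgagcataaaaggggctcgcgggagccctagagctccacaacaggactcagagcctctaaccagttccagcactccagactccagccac
Cxcl2: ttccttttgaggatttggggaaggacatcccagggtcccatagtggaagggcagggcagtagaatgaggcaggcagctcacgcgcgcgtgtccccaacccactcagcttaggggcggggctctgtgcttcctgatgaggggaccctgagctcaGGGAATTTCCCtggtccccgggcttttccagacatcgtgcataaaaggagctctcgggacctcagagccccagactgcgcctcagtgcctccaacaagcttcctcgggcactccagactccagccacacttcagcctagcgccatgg

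The marked letters start 71 bases before the start in Cxcl1 and 97 bases before it in Cxcl2, and the match in Ccr3 starts 179 bases before it. A GAS-type motif (TTCNNNGAA, the same on both strands) was in 3 of the 24 genes, Ccl17, Ccr6 and Cxcl14 (12.5%, against 8.3% of all promoters). An ISRE-type motif (TTTC and TTTC separated by any 2 bases, both strands) was in 1, Cxcl14 (4.17% against 3.44%). These matches describe letters only, and binding of a factor was not analysed here.

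Expression was uneven across the family and across libraries. Cxcl12, Ccl6, Ackr3, Ccl8 and Ccl5 had the highest mean levels per length and together made 44.1% to 64.7% of the summed FPKM of the 32 genes in each library. That sum was 168, 234 and 309.7 FPKM in SAHH-WT, 171, 341 and 129.8 in the libraries labelled SAHH-het and 202, 177 and 194 with betaine, highest in SAHH-het 2 and lowest in SAHH-het 3, which are libraries of the same label. In 27 of the 28 tested genes the widest range within a group exceeded the range of the group means (96.4%, against 90.8% of all tested genes), and Ackr2 was the exception. The median of the widest within-group range was 1.92 on the log2 scale for the 28 genes and 0.95 for all genes tested. The mean was highest in SAHH-WT for 16 of the 28, in SAHH-het for 10 and in SAHH-het+betaine for 2.

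**Figure D1:**
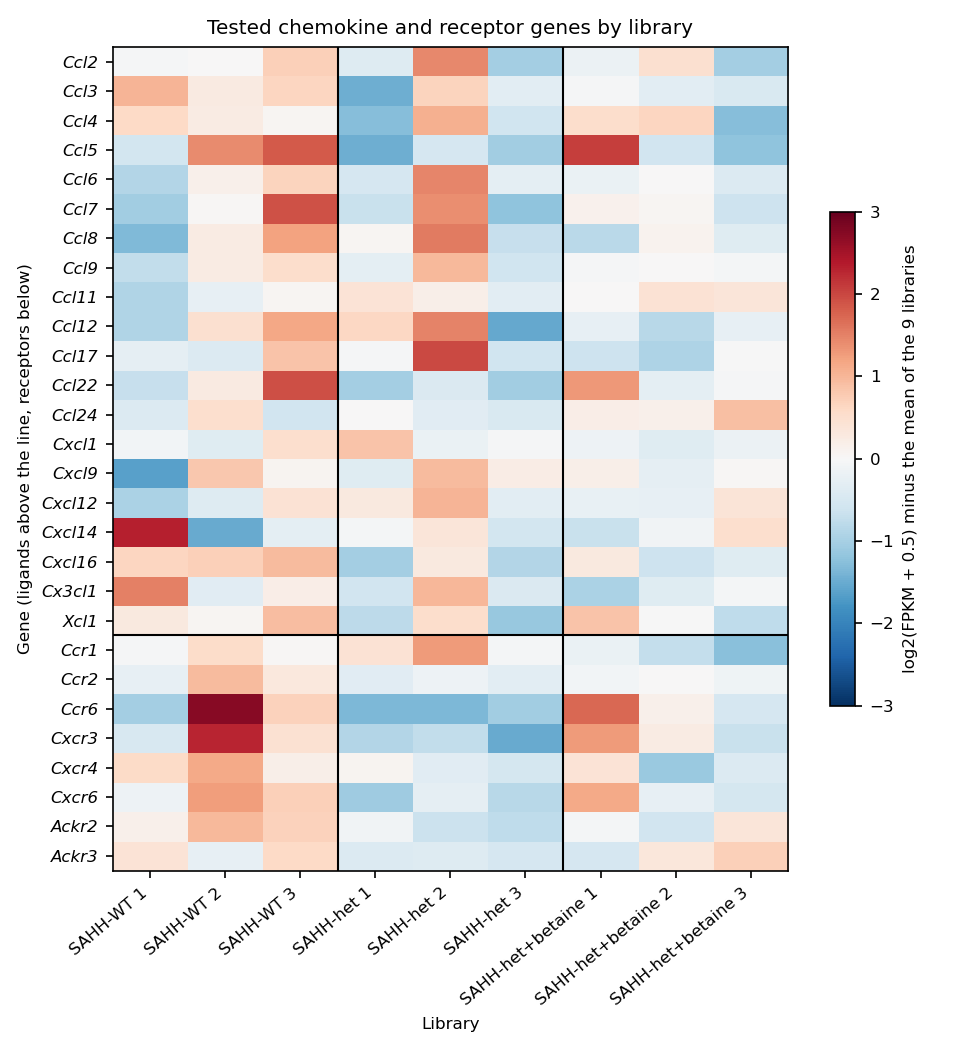
Level of the 28 tested chemokine and receptor genes in the 9 libraries, as log2(FPKM + 0.5) minus the gene's own mean, with ligands above receptors. SAHH-het 2 held the highest value of 10 genes and SAHH-WT 2 the highest value of 6, all 6 of them receptors.

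Single libraries carried much of this spread. SAHH-het 2 had the highest level of 10 genes (35.7%, against 16.4% of all tested genes), namely Ccl2, Ccl4, Ccl6, Ccl8, Ccl9, Ccl12, Ccl17, Cxcl9, Cxcl12 and Ccr1. SAHH-WT 2 had the highest level of 6, all receptors (21.4% against 13.1%): Ccr2, Ccr6, Cxcr3, Cxcr4, Cxcr6 and Ackr2. SAHH-WT 3 was highest for Ccl7, Ccl22, Cxcl16 and Xcl1 (14.3% against 4.04%), and SAHH-WT 1 for Ccl3, Cxcl14 and Cx3cl1 (10.7% against 20.4%). SAHH-het 1 was highest for Cxcl1 alone (3.57% against 15.7%) and SAHH-het 3 for 0 genes (against 7.32%), while each betaine library was highest for 1 or 2. No ligand peaked in SAHH-WT 2, and of the other 2 receptors Ccr1 peaked in SAHH-het 2 and Ackr3 in betaine 3.

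The CC ligands Ccl2, Ccl7, Ccl8 and Ccl12 lie beside the eotaxin Ccl11 within 81.2 kb of chromosome 11. Ccl8 (chr11:82115185-82116799), the most abundant of them, was at 7.01, 21.5 and 42.7 FPKM in the SAHH-WT libraries, 18.8, 54.9 and 11.1 in those labelled SAHH-het and 10.1, 19.7 and 13.9 with betaine. Ccl12, a mouse monocyte chemoattractant, was at 1.64, 5.09 and 8.34 FPKM in the SAHH-WT libraries, 5.66, 10.6 and 0.873 in those labelled SAHH-het and 2.86, 1.72 and 2.84 with betaine. Ccl8 and Ccl12 were both above their other group mates in SAHH-WT 3 and SAHH-het 2, and every group overlapped every other. Ccl7 was at 1.29, 3.27 and 13.4 FPKM in the SAHH-WT libraries, 1.81, 9.15 and 1.09 in those labelled SAHH-het and 3.55, 3.36 and 1.91 with betaine, with the same high libraries. Ccl2, the classical Ccr2 ligand, was at 2.24, 2.30 and 4.10 FPKM in the SAHH-WT libraries, 1.65, 7.08 and 0.883 in those labelled SAHH-het and 1.98, 3.38 and 0.872 with betaine. The 4 ligands summed to 12.2, 32.1 and 68.5 FPKM in SAHH-WT, 27.9, 81.7 and 13.99 in the libraries labelled SAHH-het and 18.5, 28.1 and 19.5 with betaine. Ccl11, which draws eosinophils and lies between Ccl7 and Ccl12, was at 6.30, 10.4 and 12.8 FPKM in the SAHH-WT libraries, 16.5, 13.97 and 9.78 in those labelled SAHH-het and 12.3, 16.8 and 15.9 with betaine and was not highest of its group in SAHH-het 2, although it was in SAHH-WT 3. The ratio of Ccl8 to Ccl11 was 3.93 in SAHH-het 2 and 3.35 in SAHH-WT 3, and 0.819 to 2.08 in the other 7 libraries.

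Ccl24, the other eotaxin, was at 1.74, 3.70 and 1.51 FPKM in the SAHH-WT libraries, 2.51, 1.86 and 1.66 in those labelled SAHH-het and 2.92, 2.79 and 5.01 with betaine. Its values with betaine lay above all 3 libraries labelled SAHH-het and overlapped SAHH-WT. The eosinophil receptor for both, Ccr3, was near the limit of detection at 0 to 0.0578 FPKM, from 14 fragments in all. The summed eosinophil and mast cell markers ran from 8.80 to 63.1 FPKM over the 9 libraries, and the eosinophil peroxidase gene Epx was listed at 0 in 8 of them.

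A second chromosome 11 group, Ccl5, Ccl9, Ccl6, Ccl3 and Ccl4, spans 138.9 kb. Ccl6 (chr11:83587882-83593087), a macrophage chemokine of rodents, was at 11.97, 24.8 and 35.6 FPKM in the SAHH-WT libraries, 15.6, 62.5 and 18.3 in those labelled SAHH-het and 19.4, 22.6 and 16.7 with betaine. Ccl9, its rodent neighbour, was at 5.20, 10.7 and 13.2 FPKM in the SAHH-WT libraries, 7.20, 18.1 and 5.76 in those labelled SAHH-het and 8.70, 9.11 and 8.55 with betaine. Both were highest in SAHH-het 2 and next highest in SAHH-WT 3, and the ratio of Ccl6 to Ccl9 stayed between 1.96 and 3.45 in the 9 libraries. Ccl5 (chr11:83525778-83530518), made by T cells and other cells and bound by Ccr1 and Ccr3 among others, was at 5.87, 24.2 and 32.9 FPKM in the SAHH-WT libraries, 2.86, 6.06 and 3.98 in those labelled SAHH-het and 38.6, 5.76 and 3.50 with betaine. Its high libraries were SAHH-WT 2, SAHH-WT 3 and betaine 1, not SAHH-het 2. Ccl3, a macrophage chemokine bound by Ccr1, was at 2.30, 1.16 and 1.65 FPKM in the SAHH-WT libraries, 0, 1.68 and 0.612 in those labelled SAHH-het and 0.850, 0.602 and 0.498 with betaine. Ccl4, another macrophage chemokine, ranged over 0 to 2.04 FPKM, with group means of 1.01 ± 0.295 FPKM in SAHH-WT, 0.780 ± 1.098 in SAHH-het and 0.884 ± 0.769 with betaine. The value of 0 for Ccl3 in SAHH-het 1 is a count of 0 fragments, which allows up to 3 fragments or 0.283 FPKM. For Ccl4 the count was 0 in SAHH-het 1 and betaine 3, which allows up to 0.329 and 0.347 FPKM. Such limits cover counting error only.

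**Figure D2:**
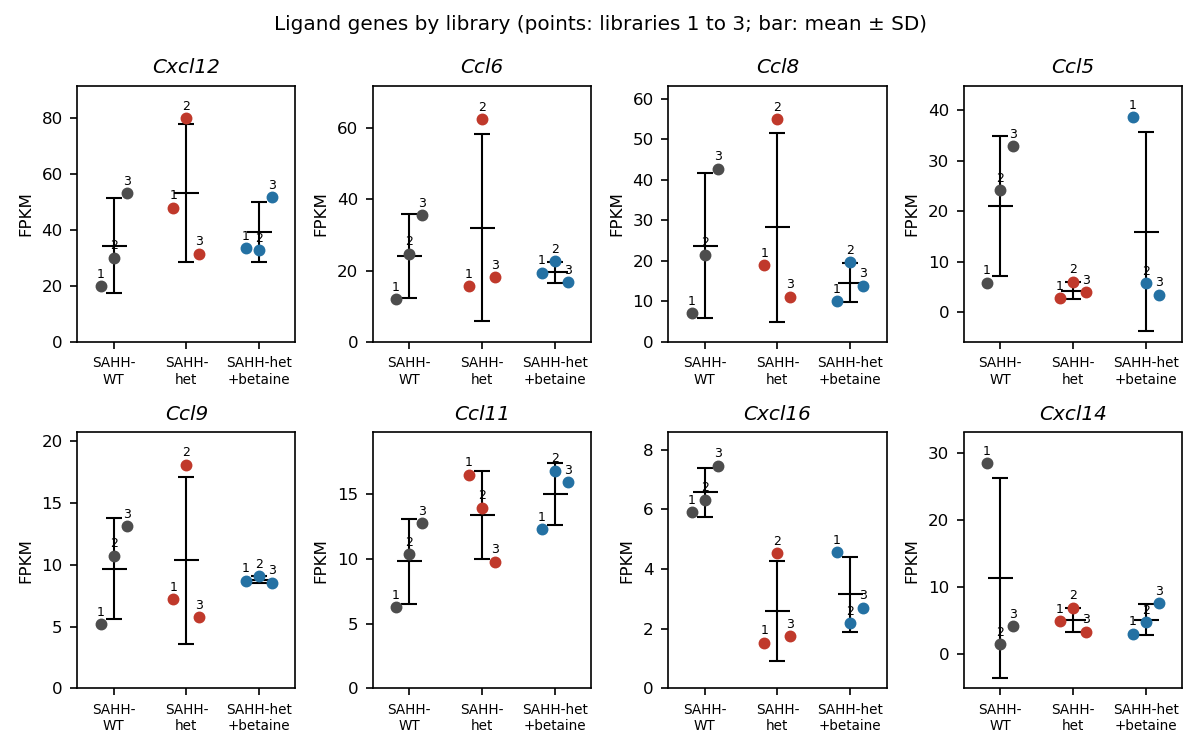
FPKM of 8 chemokine ligands in each library (points) with the group mean and SD (bars) for SAHH-WT, SAHH-het and SAHH-het+betaine, 3 libraries each. SAHH-het 2 lies far above its group for Ccl6, Ccl8 and Ccl9, and the 3 SAHH-WT libraries lie above all others for Cxcl16.

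The stromal ligand Cxcl12 (chr6:117168535-117181367) was the most abundant of the 32 genes at 19.99, 30.1 and 53.1 FPKM in the SAHH-WT libraries, 47.9, 80.0 and 31.5 in those labelled SAHH-het and 33.4, 32.7 and 51.8 with betaine, and all groups overlapped. Cxcl14, made by epithelial and stromal cells, was at 28.5, 1.53 and 4.18 FPKM in the SAHH-WT libraries, 4.99, 6.95 and 3.41 in those labelled SAHH-het and 3.11, 4.84 and 7.65 with betaine. Its value in SAHH-WT 1, the library with adrenal cortex RNA, was 28.5 FPKM against 1.53 to 7.65 FPKM in the other 8, and the part of that tissue in it was not tested. Cxcl16 (chr11:70453983-70459984), a membrane-anchored ligand that is also a scavenger receptor for oxidised lipoprotein, was at 5.91, 6.33 and 7.47 FPKM in the SAHH-WT libraries, 1.53, 4.54 and 1.75 in those labelled SAHH-het and 4.56, 2.19 and 2.70 with betaine. All 3 SAHH-WT libraries were above the other 6, whose groups overlapped each other. Zmynd15 overlaps Cxcl16 on the opposite strand with a mean of 0.936 FPKM, and the labels do not give whether counting used the strand. Cx3cl1 (fractalkine), the other membrane-anchored ligand, ranged over 1.58 to 11.02 FPKM, highest in SAHH-WT 1, with group means of 5.94 ± 4.46 FPKM in SAHH-WT, 4.08 ± 3.02 in SAHH-het and 2.53 ± 0.903 with betaine.

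Cxcl9, induced by interferon gamma and bound by Cxcr3, ranged over 1.69 to 12.5 FPKM, with group means of 6.57 ± 4.84 FPKM in SAHH-WT, 8.23 ± 3.94 in SAHH-het and 6.24 ± 1.049 with betaine. Its highest values were in SAHH-het 2 and SAHH-WT 2. Ccl22, which binds Ccr4 on regulatory and helper T cells, was at 0.274, 1.01 and 4.34 FPKM in the SAHH-WT libraries, 0.124, 0.433 and 0.115 in those labelled SAHH-het and 2.60, 0.529 and 0.722 with betaine. Ccl17, the other Ccr4 ligand, ranged over 0 to 3.27 FPKM from 53 fragments. Xcl1, made by T and NK cells, ranged over 0 to 1.57 FPKM from 57 fragments. All 3 groups overlapped in both.

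The neutrophil ligands were low throughout. Cxcl1 ranged over 0.287 to 1.35 FPKM, with group means of 0.570 ± 0.334 FPKM in SAHH-WT, 0.746 ± 0.526 in SAHH-het and 0.368 ± 0.0704 with betaine. Cxcl2 and Cxcl5 were under the minimum for testing, Cxcl5 at 0 to 0.372 FPKM from 36 fragments. Cxcl2, from 73 fragments, was at 0.0474, 0.135 and 0.0915 FPKM in the SAHH-WT libraries, 0.315, 0.650 and 0.518 in those labelled SAHH-het and 0.286, 0.111 and 0.0369 with betaine, so the 3 libraries labelled SAHH-het were above the other 6. With no minimum on expression and 30701 genes tested it was not called (SAHH-het minus SAHH-WT, log2 change 0.74, SE 0.19; limma, BH-adjusted p = 0.471), nor in betaine minus SAHH-het (log2 change -0.63, SE 0.19; limma, BH-adjusted p = 0.782). For Cxcl2 the narrowest margin was 0.315 FPKM in SAHH-het 1 against 0.286 in betaine 1, or 9 fragments against 10. Cxcl2 was singled out after its values were seen. Summed neutrophil markers were 321, 226 and 19.5 FPKM in SAHH-WT, 537, 1349 and 156 in the libraries labelled SAHH-het and 6.61, 23.1 and 14.8 with betaine, highest in SAHH-het 2 and lowest in SAHH-WT 3 and the betaine libraries, and their part in the Cxcl2 values was not tested.

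Among the receptors, Ackr3 (chr1:90203980-90216751), which scavenges Cxcl12, was at 29.4, 18.5 and 33.8 FPKM in the SAHH-WT libraries, 16.6, 16.8 and 15.3 in those labelled SAHH-het and 15.3, 28.2 and 36.8 with betaine. The 3 libraries labelled SAHH-het lay within 15.3 to 16.8 FPKM and under all SAHH-WT libraries, and betaine 1 was at the level of the lowest of them. Cxcr4 (chr1:128588199-128592293), the signalling receptor for Cxcl12, was at 15.8, 23.3 and 11.7 FPKM in the SAHH-WT libraries, 10.96, 8.11 and 7.04 in those labelled SAHH-het and 13.8, 4.55 and 7.64 with betaine. SAHH-WT lay above SAHH-het in every library, by a margin as small as 11.7 against 11.0 FPKM. Ackr2, which scavenges inflammatory CC chemokines, was at 0.925, 2.03 and 1.59 FPKM in the SAHH-WT libraries, 0.694, 0.322 and 0.257 in those labelled SAHH-het and 0.738, 0.369 and 1.17 with betaine, and its SAHH-WT and SAHH-het ranges were also apart. Ackr4, the scavenger of Ccl19, Ccl21 and Ccl25, was under the minimum at 0.273 to 0.786 FPKM and overlaps Acad11 on the opposite strand, which averaged 19.7 FPKM.

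Ccr2, the monocyte receptor for Ccl2, was at 2.08, 5.41 and 3.28 FPKM in the SAHH-WT libraries, 1.90, 2.24 and 1.94 in those labelled SAHH-het and 2.36, 2.59 and 2.27 with betaine. Ccr1 (chr9:123962124-123968692), a receptor for Ccl3 and Ccl5 on monocytes and neutrophils, was at 2.08, 3.36 and 2.20 FPKM in the SAHH-WT libraries, 3.12, 5.95 and 2.03 in those labelled SAHH-het and 1.82, 1.11 and 0.620 with betaine. The 3 betaine libraries lay under all 6 others for Ccr1. The neutrophil marker sum given above was low in the betaine libraries too, but also in SAHH-WT 3, at 19.5 FPKM, where Ccr1 was at 2.20 FPKM. The part of neutrophils in the Ccr1 values was not tested.

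The lymphocyte receptors shared their high libraries. Cxcr3, on activated T cells, was at 0.765, 8.05 and 1.93 FPKM in the SAHH-WT libraries, 0.460, 0.550 and 0.116 in those labelled SAHH-het and 3.79, 1.60 and 0.617 with betaine. Ccr6, on B cells and some T cells, was at 0.127, 7.95 and 1.55 FPKM in the SAHH-WT libraries, 0, 0 and 0.116 in those labelled SAHH-het and 3.72, 0.927 and 0.395 with betaine. Cxcr6, on T and NKT cells, was at 0.813, 2.97 and 1.86 FPKM in the SAHH-WT libraries, 0.187, 0.696 and 0.312 in those labelled SAHH-het and 2.70, 0.716 and 0.514 with betaine. SAHH-WT 2 was highest and betaine 1 second in each, and all 3 receptors were lower in every library labelled SAHH-het than in every SAHH-WT library. For Ccr6 the margin was 0.127 FPKM in SAHH-WT 1 against 0.116 in SAHH-het 3, or 6 fragments against 4. It was counted at 0 fragments in SAHH-het 1 and SAHH-het 2, which allows up to 0.0936 and 0.0724 FPKM. Fyco1, at a mean of 9.33 FPKM, overlaps Cxcr6 on the opposite strand. Summed T and NK cell markers were 10.7, 115 and 63.1 FPKM in SAHH-WT, 7.70, 11.6 and 7.02 in the libraries labelled SAHH-het and 111, 20.98 and 11.6 with betaine. The B and plasma cell markers summed to 69.9, 2352 and 383 FPKM in SAHH-WT, 145, 154 and 109 in the libraries labelled SAHH-het and 782, 207 and 157 with betaine. Both sums were highest in SAHH-WT 2, and betaine 1 was second, as for the receptors. Their part in the receptor values was not tested.

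**Figure D3:**
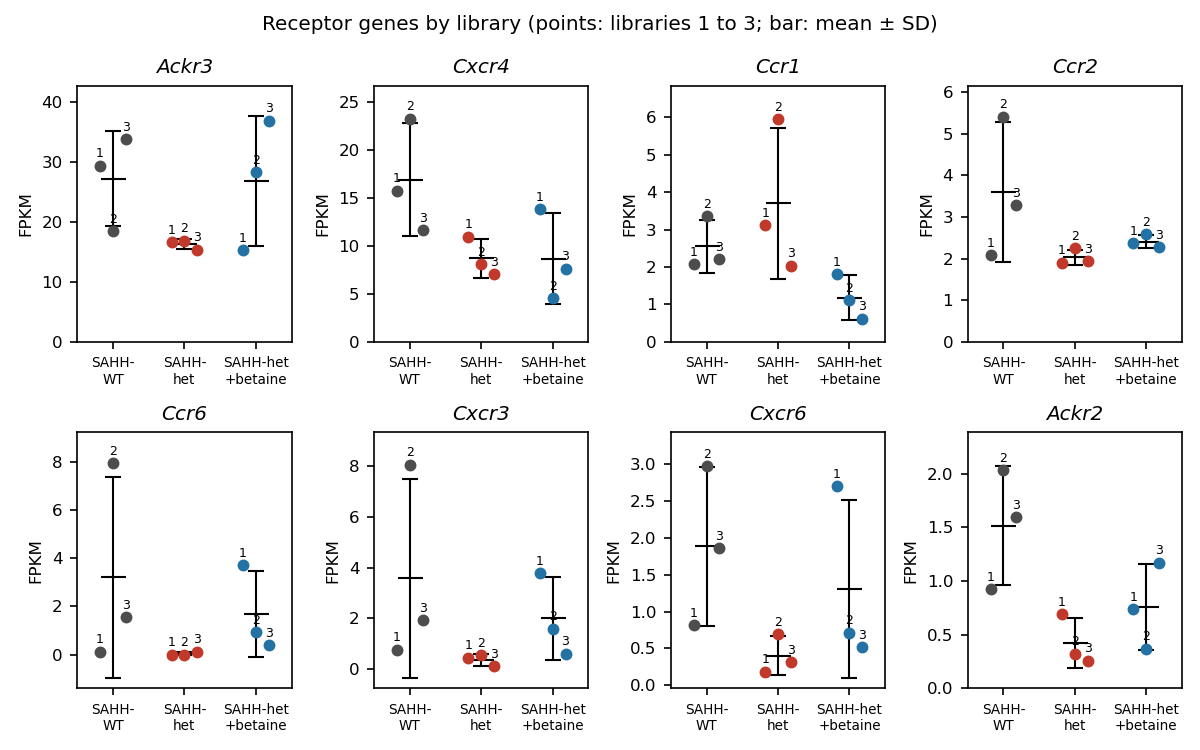
FPKM of 8 chemokine receptors in each library (points) with the group mean and SD (bars) for SAHH-WT, SAHH-het and SAHH-het+betaine, 3 libraries each. SAHH-het lies under SAHH-WT without overlap for Ackr3, Cxcr4, Ccr6, Cxcr3, Cxcr6 and Ackr2, and betaine lies under both other groups for Ccr1.

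**Figure D4:**
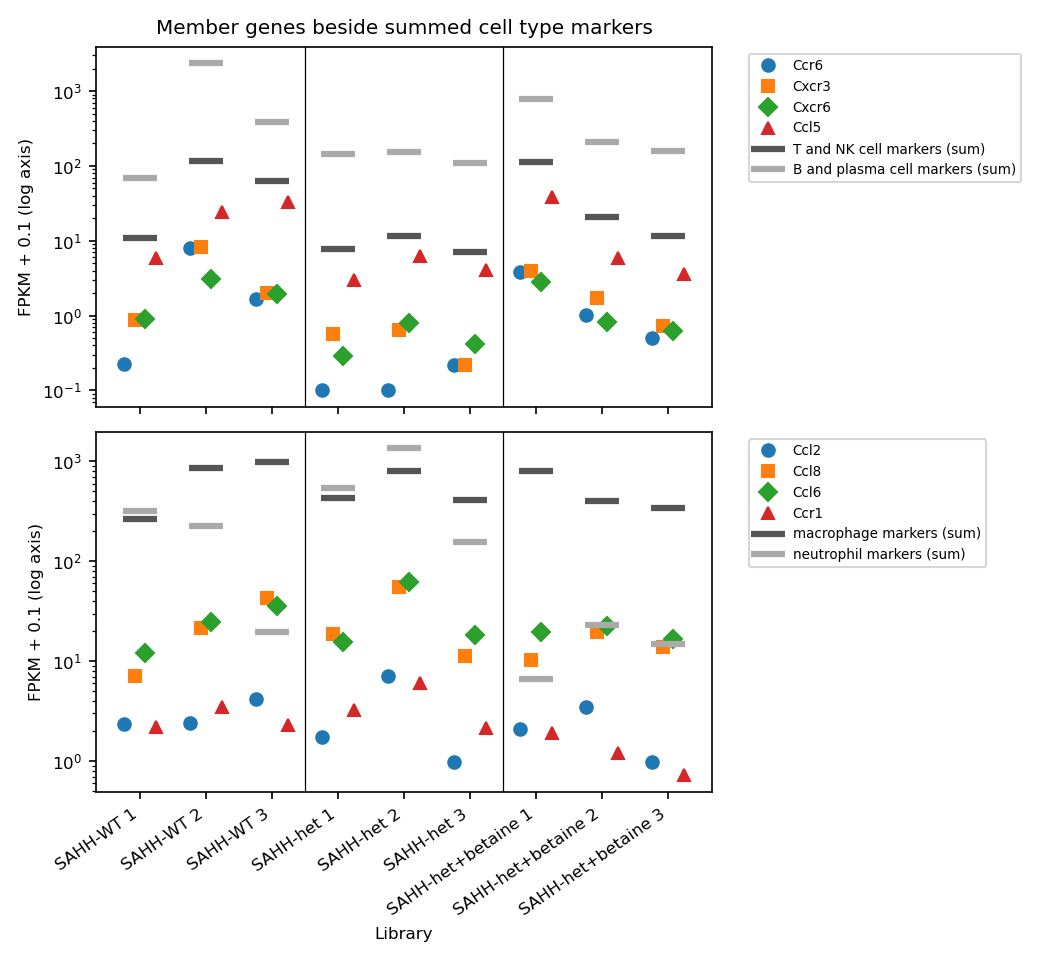
Level per library (log axis, FPKM plus a small constant) of Ccr6, Cxcr3, Cxcr6 and Ccl5 beside the summed T and NK cell and B and plasma cell markers (top), and of Ccl2, Ccl8, Ccl6 and Ccr1 beside the summed macrophage and neutrophil markers (bottom). Ccr6, Cxcr3 and Cxcr6 are highest in SAHH-WT 2, as both lymphocyte sums are, while Ccl2, Ccl8, Ccl6 and Ccr1 have high values in SAHH-het 2, where the neutrophil sum is highest; the macrophage sum is highest in SAHH-WT 3, and Ccl2 and Ccl6 are low in SAHH-het 1, which has the second highest neutrophil sum.

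The first comparison set the libraries labelled SAHH-het beside SAHH-WT, groups whose labels differ in SAHH genotype but whose Apoe levels differ too. No ligand or receptor was called at a Benjamini-Hochberg (BH) adjusted p under 0.05 in limma, nor by voom on the recovered fragments, and 4 of 15610 genes were in limma (0.0256%). At an unadjusted p under 0.05, 4 of the 28 were lower in the libraries labelled SAHH-het (14.3%, against 5.16% of all genes) and 0 were higher (against 7.3%). In 7 the SAHH-het values all lay under SAHH-WT (25.0%, against 8.28%), and in 0 all above (against 8.33%). The 7 were 1 ligand, Cxcl16, and 6 of the 8 tested receptors, Ackr3, Cxcr4, Cxcr3, Ccr6, Cxcr6 and Ackr2. Of these, Ccr6, Cxcr3, Cxcr6 and Ackr2 averaged 0.0385, 0.375, 0.398 and 0.424 FPKM in SAHH-het, under the minimum of 0.5 FPKM. They passed it through the other groups, so the counts above depend on that minimum. Cxcl2, which lay above all SAHH-WT values in SAHH-het, was under the minimum and is not among the 28.

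By role, 7 of 8 receptors had a log2 change below 0, with a median of -1.0, and Ccr1 was the exception. Among ligands 12 of 20 were below 0, with a median of -0.16. Of the 28, 19 were below 0 (67.9%, against 49.1% of all genes), and their median was -0.46 and that over all genes tested 0.01. Summed over the 10 receptors, the level was 52.2, 71.9 and 58.7 FPKM in SAHH-WT, 34.3, 35.2 and 27.5 in the libraries labelled SAHH-het and 44.7, 40.6 and 50.7 with betaine. Ackr3 and Cxcr4 weigh most in this sum. The 3 groups did not overlap on the FPKM scale, but after rescaling to TPM SAHH-het (57.2 to 93.5) and betaine (77.8 to 116) did, while SAHH-WT (129 to 187) stayed above both.

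The smallest p was that of Cxcl16, with means of 6.57 ± 0.811 FPKM in SAHH-WT and 2.61 ± 1.68 in SAHH-het, and its log2 change was -1.31 (SE 0.37, 95% interval -2.15 to -0.46; limma, BH-adjusted p = 0.331). For Ackr2, with means of 1.52 ± 0.557 and 0.424 ± 0.236 FPKM, it was -1.12 (SE 0.35; limma, BH-adjusted p = 0.351). Cxcr6 differed by -1.34 (SE 0.51; limma, BH-adjusted p = 0.376), with means of 1.88 ± 1.08 and 0.398 ± 0.265 FPKM. These had the 3 smallest p-values among the 28, and none passed the adjustment. Cxcr3 gave -1.80 (SE 0.72; limma, BH-adjusted p = 0.385), and Ccr6 gave -2.05 (SE 0.90; limma, BH-adjusted p = 0.400). The fitted change of Ccr6 depends on the constant added before the log, at -3.48 with 0.1 and -1.51 with 1 in place of 0.5, and voom on the recovered fragments gave -5.30. Without SAHH-WT 2 it was -1.08, and that of Cxcr3 was -1.04. Cxcr4 gave -0.89 (SE 0.40; limma, BH-adjusted p = 0.403).

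Left-out libraries moved these counts. Without SAHH-WT 1, 8 genes were lower at an unadjusted p under 0.05 (28.6%, against 6.63% of all genes), and without SAHH-het 3 there were 2 (7.14%, against 3.74%). Without SAHH-het 2, 15 of the 27 genes then tested lay under SAHH-WT in both remaining libraries (55.6%, against 17.5% of all genes), the ligands Ccl2, Ccl3, Ccl4, Ccl5, Ccl22, Cx3cl1 and Xcl1 and the receptor Ccr2 being added to the 7. Without SAHH-het 2 the median was -0.85, and without SAHH-het 3 it was -0.13. Marker lists also lay to one side: 11 of 11 tested T and NK cell markers and 11 of 11 B and plasma cell markers had a log2 change below 0, and 10 of 10 fibroblast markers. Above 0 were 8 of 10 neutrophil markers and 9 of 10 endothelial markers. Brown fat markers were above 0 in 8 of 8 (median 1.91) and fat cell markers in 7 of 8 (median 0.92). Adrenal cortex markers were below 0 in 8 of 8 (median -3.11). Other lists were split: below 0 were 7 of 12 macrophage markers (median -0.21) and 4 of 9 skeletal and cardiac muscle markers. The part of these cells and tissues in the receptor values was not tested.

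**Figure D5:**
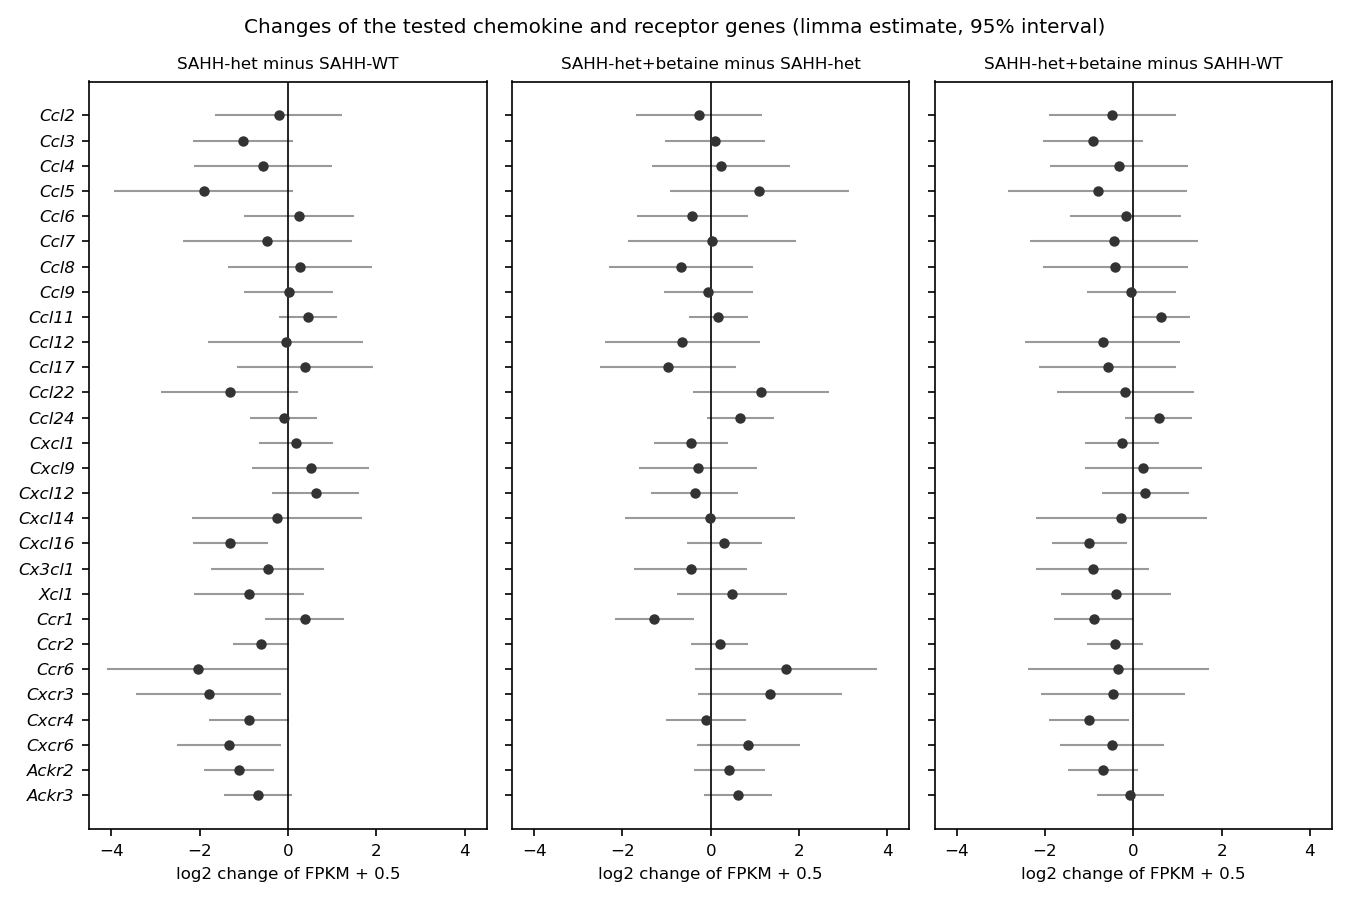
Log2 change of the 28 tested genes in the 3 comparisons, with 95% confidence intervals from limma (3 libraries a group). Of the 28 genes, 0 passed the adjusted threshold in any panel; Cxcl16 and Ackr2 in the first and Ccr1 in the second lie farthest from 0 relative to their intervals.

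The second comparison set the libraries labelled SAHH-het+betaine beside those labelled SAHH-het, which also differed in Apoe and Ahcy. No chemokine or receptor was called by limma after BH adjustment, nor by voom on the recovered fragments, and 3 of 15610 genes were in limma (0.0192%). Of the 28, 1 reached an unadjusted p under 0.05 in either direction (against 8.03% of all genes). It was lower (3.57%, against 4.4%), and 0 were higher (against 3.63%). Betaine values lay under all SAHH-het values for 1 gene, Ccr1 (3.57%, against 8.16%), and above them for 5 (17.9%, against 8.21%): Ccl24, Ccr6, Cxcr3, Ccl22 and Ccr2. Of the 5, Ccr6, Cxcr3 and Ccl22 averaged 0.0385, 0.375 and 0.224 FPKM in SAHH-het, under the minimum for testing, so this count depends on that minimum. The lowest betaine value was close to the highest SAHH-het value for Ccr2, at 2.27 against 2.24 FPKM (201 against 271 fragments). So it was for Cxcr3, at 0.617 against 0.550 FPKM (14 against 17 fragments), and Ccl22, at 0.529 against 0.433 (16 against 18). After rescaling to TPM, non-overlapping members in either direction were 2, against 6 on the FPKM scale. Signs were near balance, with 13 lower (46.4%, against 50.8% of all genes) and 15 higher and a median of 0.06, against -0.01 for all genes. Receptors were higher in 6 of 8, with a median of 0.52.

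Ccr1 had means of 3.70 ± 2.02 FPKM in SAHH-het and 1.18 ± 0.602 with betaine, and its log2 change of -1.27 (SE 0.39, 95% interval -2.17 to -0.38; limma, BH-adjusted p = 0.559) did not pass. Ccl24 gave 0.67 (SE 0.33; limma, BH-adjusted p = 0.645), with means of 2.01 ± 0.449 and 3.57 ± 1.25 FPKM. Ccr6 gave 1.71 (SE 0.90; limma, BH-adjusted p = 0.667) and Cxcr3 gave 1.34 (SE 0.72; limma, BH-adjusted p = 0.672), both with betaine 1 as the highest of the 3 treated libraries. Ackr3 gave 0.62 (SE 0.33; limma, BH-adjusted p = 0.672), and Ccl22 gave 1.15 (SE 0.68; limma, BH-adjusted p = 0.693). Without betaine 1 these changes were 1.08 for Ccr6, 0.84 for Cxcr3, 0.97 for Ackr3 and 0.66 for Ccl22, and without betaine 3 they were 0.35 for Ackr3 and 0.43 for Ccl24. Without SAHH-het 2, 10 of the 27 then tested genes lay above SAHH-het and 2 below (against 15.7% and 15.6% of all genes), and the median was 0.42. Without SAHH-het 3 the median was -0.14, so its sign turned. Counting an unadjusted p under 0.05, 2 genes were found without SAHH-het 2, SAHH-het 3, betaine 1 or betaine 3 (7.14% to 7.41%, against 4.82% to 11.7% of all genes), Ccr1 being 1 of them each time. All 10 neutrophil markers had a log2 change below 0, at a median of -2.80, and 9 of 10 endothelial markers had one below 0. Macrophage markers were split, with 7 of 12 below 0. Above 0 were 10 of 11 T and NK cell markers, 11 of 11 B and plasma cell markers and 10 of 10 fibroblast markers, and the part of these cells in the chemokine values was not tested.

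The third comparison set the libraries labelled SAHH-het+betaine beside SAHH-WT, and shares its libraries with the other two. Again 0 of the 28 were called by limma after BH adjustment, with 0 of 15610 genes called (0%); 1251 genes (8.01%) had an unadjusted p under 0.05, and with voom on recovered fragments 0 genes were called too. Among the 28, 24 had a log2 change below 0 (85.7%, against 52.1% of all genes), including 8 of 8 receptors, and Ccl11, Ccl24, Cxcl9 and Cxcl12 were the 4 above 0. At an unadjusted p under 0.05, 3 were lower (10.7%, against 2.93%) and 0 higher (against 5.09%). For 3 genes, Cxcl16, Ccr1 and Ccl3, the betaine values lay under all SAHH-WT values (10.7%, against 7.64%), and for 0 above them (against 9.29%). The median was -0.41, against -0.02 for all genes. Markers with a log2 change below 0 were 10 of 10 for neutrophils, 11 of 11 for T and NK cells and 11 of 11 for B and plasma cells. So were 6 of 6 for dendritic cells, 10 of 12 for macrophages and 8 of 8 for adrenal cortex. Above 0 were 8 of 8 brown fat markers and 7 of 8 fat cell markers. The part of these cells and tissues in the chemokine values was not tested.

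Cxcl16 had means of 6.57 ± 0.811 FPKM in SAHH-WT and 3.15 ± 1.25 with betaine, and its log2 change was -1.0 (SE 0.37; limma, BH-adjusted p = 0.618). Cxcr4 gave -1.0 (SE 0.40; limma, BH-adjusted p = 0.618), with means of 16.9 ± 5.89 and 8.68 ± 4.73 FPKM. Ccr1 gave -0.90 (SE 0.39; limma, BH-adjusted p = 0.618) and Ccl11 gave 0.63 (SE 0.29; limma, BH-adjusted p = 0.618), the latter with means of 9.81 ± 3.27 and 15.02 ± 2.40 FPKM. Ackr2 gave -0.69 (SE 0.35; limma, BH-adjusted p = 0.619), and Ccl3 gave -0.92 (SE 0.49; limma, BH-adjusted p = 0.632). Without SAHH-WT 1 the change of Ccl11 was 0.36, and without betaine 2 that of Cxcr4 was -0.63 and that of Ackr2 -0.45. Without SAHH-WT 1, 9 genes did not overlap (32.1%, against 28.4% of all genes), and without betaine 1 there were 8 (28.6%, against 35.8%). There were 6 each (21.4%) without SAHH-WT 2, SAHH-WT 3 or betaine 3, against 23.4%, 34.2% and 22.4% of all genes. Counting an unadjusted p under 0.05, 0 genes were found without betaine 2 (against 3.33% of all genes). There was 1 (3.57%) without betaine 3, Ackr2, and 1 without SAHH-WT 2, Ccl24 in the higher direction, against 3.4% and 5.96%. Without betaine 1 there were 5 (17.9%, against 8.71%).

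The other chemokine genes were measured as a list of 16 ligands and 13 receptors. Of the ligands 6 were tested and 0 called in any comparison, and Ccl20 and Ccl26 were listed at 0 in all 9 libraries. The 6 were 3 lower and 3 higher in SAHH-het minus SAHH-WT. They were 4 lower and 2 higher in betaine minus SAHH-het, and 2 lower and 4 higher in betaine minus SAHH-WT. Cxcl13, which draws B cells, had the highest mean, at 4.14, 181 and 51.4 FPKM in the SAHH-WT libraries, 3.71, 23.9 and 13.2 in those labelled SAHH-het and 29.3, 5.34 and 4.12 with betaine, with SAHH-WT 2 far above the rest. Pf4, a platelet chemokine, was at 12.99, 25.04 and 27.1 FPKM in the SAHH-WT libraries, 26.4, 48.4 and 34.4 in those labelled SAHH-het and 25.03, 40.7 and 32.1 with betaine, with a log2 change of 0.76 (SE 0.34; limma, BH-adjusted p = 0.403) in SAHH-het minus SAHH-WT and 0.62 (SE 0.34; limma, BH-adjusted p = 0.636) in betaine minus SAHH-WT. Cxcl13 gave -1.65 and -1.92 in the same comparisons. In betaine minus SAHH-het the platelet gene Ppbp gave -0.97 (SE 0.93; limma, BH-adjusted p = 0.816) and Cxcl10, another Cxcr3 ligand, gave 0.37 (SE 0.69; limma, BH-adjusted p = 0.918).

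Of the 13 other receptors 8 were tested and 0 called. In SAHH-het minus SAHH-WT 4 were lower and 4 higher, with a median of -0.27. Betaine minus SAHH-het also had 4 lower and 4 higher, and betaine minus SAHH-WT had 7 lower and 1 higher. Ccr7, the homing receptor of naive T cells and mature dendritic cells, had the highest mean, at 0.570, 10.5 and 11.1 FPKM in the SAHH-WT libraries, 0.768, 0.424 and 0.406 in those labelled SAHH-het and 11.9, 2.80 and 1.27 with betaine, and its high libraries were SAHH-WT 2, SAHH-WT 3 and betaine 1, as for Ccl5. In SAHH-het minus SAHH-WT its log2 change was -2.33 (SE 0.98; limma, BH-adjusted p = 0.395). Cxcr2, the neutrophil receptor, was at 1.22, 2.94 and 2.48 FPKM in the SAHH-WT libraries, 1.90, 7.73 and 1.56 in those labelled SAHH-het and 1.57, 0.227 and 0.326 with betaine, with -1.68 (SE 0.60; limma, BH-adjusted p = 0.574) in betaine minus SAHH-het and -1.28 (SE 0.60; limma, BH-adjusted p = 0.618) in betaine minus SAHH-WT. Ackr1, an atypical receptor on venules and red cells, gave -1.18 (SE 0.44; limma, BH-adjusted p = 0.591) in betaine minus SAHH-het, and Ccr10 gave 0.59 (SE 0.27; limma, BH-adjusted p = 0.618) in betaine minus SAHH-WT.

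Receptor signalling was represented by 24 genes, all tested and 0 called, with 20 lower in SAHH-het minus SAHH-WT, 17 higher in betaine minus SAHH-het and 18 lower in betaine minus SAHH-WT. Gnai2, a G-protein alpha subunit, had the highest mean. Rgs1, which shuts off G-protein signals in lymphocytes, gave -1.28 (SE 0.31; limma, BH-adjusted p = 0.283) in SAHH-het minus SAHH-WT and -1.07 (SE 0.31; limma, BH-adjusted p = 0.618) in betaine minus SAHH-WT. Gnb2, a G-protein beta subunit, gave 0.53 (SE 0.18; limma, BH-adjusted p = 0.358) in the first and -0.39 (SE 0.18; limma, BH-adjusted p = 0.632) in betaine minus SAHH-het. Arrb2, an arrestin, gave -0.63 (SE 0.27; limma, BH-adjusted p = 0.618) in the third.

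Of 25 genes that induce chemokine transcription, 21 were tested and 0 called, and 15, 10 and 18 of them were lower in the 3 comparisons. Cebpb had the highest mean. Il1b, the cytokine that induces many chemokines, was at 1.08, 2.54 and 1.49 FPKM in the SAHH-WT libraries, 1.63, 10.2 and 2.56 in those labelled SAHH-het and 0.745, 0.403 and 0.801 with betaine and was highest in SAHH-het 2. Its log2 change was -1.86 (SE 0.56; limma, BH-adjusted p = 0.559) in betaine minus SAHH-het and -0.90 (SE 0.56; limma, BH-adjusted p = 0.645) in betaine minus SAHH-WT. Tlr2 gave -0.77 (SE 0.35; limma, BH-adjusted p = 0.409) in SAHH-het minus SAHH-WT and -0.90 (SE 0.35; limma, BH-adjusted p = 0.618) in betaine minus SAHH-WT. Tnf gave -0.94 (SE 0.51; limma, BH-adjusted p = 0.448) in the first, and Nfkbiz, an IkappaB family member, gave -0.63 (SE 0.35; limma, BH-adjusted p = 0.674) in the second. Macrophage markers, from cells that make many of these ligands, summed to 267, 849 and 975 FPKM in SAHH-WT, 425, 801 and 409 in the libraries labelled SAHH-het and 795, 399.9 and 345 with betaine, and dendritic cell markers to 9.90, 28.1 and 23.2 FPKM in SAHH-WT, 10.6, 23.2 and 9.78 in the libraries labelled SAHH-het and 18.6, 13.9 and 13.4 with betaine.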

How the data were processed

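HISAT2 2.0.5 and the build mm10 are named in the submitters' processing notes. The deposited table gives FPKM made by the authors; no source used here gives the counter, annotation release or strand setting. Of 54532 genes, 54409 have a symbol, and 54495 matched GENCODE vM21, which supplied coordinates and exon lengths. Whole fragments were recovered from the FPKM steps, within 0.1 of a whole number for 96.9% to 97.3% of values above 0. Tests used limma 3.58.1 in R 4.3.3 on log2(FPKM + 0.5), with 3 group means in 1 fit, 6 residual degrees of freedom and BH adjustment over 15610 genes that averaged 0.5 FPKM or more; a change is called at an adjusted p under 0.05. Such changes understate those of low genes. The members and lists were chosen with earlier results of these data known. Named genes are the 6 smallest p in each comparison and the 8 highest means, and for each further list the 2 smallest p and the highest mean; 2 genes of those lists are not reported here. SAHH-WT and SAHH-het libraries with the same number deviated together (correlations 0.29, 0.23 and 0.18), but what a number marks is not in the labels, and the other groups did not pair. The fit was tested on simulated data. Alternatives were pseudocounts, filters, scalings, blocks and left-out libraries; voom, the block in only 2 groups and non-overlap counts were added after seeing the data.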

Additional observations from a re-analysis of the deposited data

How the results depend on the processing

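With 3 libraries a group, a member was called under no alternative, and no log2 change of the 6 members with the smallest p in each comparison reversed; the changes of other named genes were not tabulated. Genes called in SAHH-het minus SAHH-WT were 4, and 7 with no filter, 2 after rescaling to TPM, 1 with the replicate block and 1 with only the 2 groups fitted, and 1 to 4 with a library left out. For betaine minus SAHH-het 3 became 1 with the replicate block and 1 to 2 with a library left out, and for betaine minus SAHH-WT 0 became 3 with no filter and stayed 0 with a library left out. Members at an unadjusted p under 0.05 in the first comparison were 4, and 11 of 30 with TPM (36.7%, against 8.59% of all genes) and 7 with only the 2 groups (25%, against 8.76%). With a library left out there were 2 to 8 (7.14% to 28.6%, against 7.95% to 16.9%). In the second, 1 became 2 with a pseudocount of 0.1 (7.14%, against 8.21%), 2 of 32 with no filter (6.25%, against 6.03%), 2 of 30 with TPM (6.67%, against 4.95%) and 5 with only the 2 groups (17.9%, against 8.74%). With a library left out there were 1 to 2 in the second (3.57% to 7.41%, against 4.82% to 11.7%). In the third, 3 became 0 to 5 with a library left out (0% to 17.9%, against 3.33% to 12.1%). Non-overlapping members were 7, 6 and 3 in the 3 comparisons (25.0%, 21.4% and 10.7%, against 16.6%, 16.4% and 16.9% of all genes). With a library left out they ranged over 7 to 15 (25.0% to 55.6%, against 20.9% to 36.9%), 7 to 12 (25.0% to 44.4%, against 21.5% to 31.9%) and 4 to 9 (14.3% to 32.1%, against 22.1% to 35.8%). Other scalings gave 5 to 10, 2 to 8 and 3 to 7, TPM giving 2 in the second and 7 in the third. The share of all genes was not tabulated for these scalings. Leaving out a library makes non-overlap easier by construction. TPM moved the median of all genes to -0.28, -0.08 and -0.39, and the members' medians to -0.66, 0.04 and -0.80. The replicate block in SAHH-WT and SAHH-het only changed no call among the members. The cause of these differences was not tested.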
